A study of Homo sapiens with 36 samples.

Results

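The transcriptome of carboplatin-treated A2780 cis SSP cells deprived of serine and glycine (cis SSP -SG carbo, libraries 34, 35 and 36) was compared with that of carboplatin-treated cis SSP cells in complete medium (cis SSP carbo, libraries 28, 29 and 30). The 6 libraries were chosen by their labelled condition from 36 RNA-seq libraries, which cover 12 conditions with 3 libraries each. A2780 is an established human ovarian cancer cell line, here called wt, and cis is its cisplatin-resistant derivative. The cis SSP cells grew out of cis cells after culture without serine and glycine and are labelled as having regained activity of the serine synthesis pathway. The wt, cis and cis SSP cells were each kept in complete medium or in medium lacking both amino acids (-SG), with or without carboplatin (carbo), a platinum compound that crosslinks DNA. All 6 libraries therefore carry the history of cisplatin resistance, the outgrowth and the drug, and differ by the medium. The labels write the carboplatin dose as 6 M, whereas the study's methods give micromolar doses for other assays.

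Several features limit the groups as a model. Libraries of 1 condition are described in the study's legends as technical replicates, and the labels name no separate cultures, so the p-values below measure only the spread between these libraries. The labels and methods describe a homemade medium with dialyzed serum for deprivation experiments, prepared both with and without the amino acids, and name no medium for single libraries. The cis SSP cells arose in medium without both amino acids, and the paper describes no such earlier culture for wt or cis cells. Deprivation below therefore names the difference of medium between groups, not a first exposure. Of 13 ovarian epithelial markers, 9 did not pass the filter on low counts. Levels are given as CPM, a count relative to the library total, scaled by TMM factors over the 36 libraries. KRT18, a keratin of simple epithelia, lay at 13.7 to 16.7 CPM in the 6 libraries, whereas PAX8, a lineage factor of Müllerian epithelium, lay between 0 and 0.287 CPM. The leukocyte markers PTPRC and CD3E and the hemoglobin gene HBB were at 0 in every library, and PDGFRA, a growth factor receptor best known from mesenchymal cells, lay at 207 to 242 CPM.

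Total counts on genes were 17847615 to 19592665 in the complete-medium libraries and 14644029 to 16399032 in the deprived libraries, which do not overlap. Reads on no feature made up 5.55% to 6.44% of these libraries. The log2 level changed by -0.008 to 0.010 per doubling of transcript length relative to the mean of the 6 libraries, against -0.312 in library 25 (cis SSP) and -0.293 in library 32 (cis SSP -SG), neither of which is in the comparison. Genes of the mitochondrial genome took 5.42% to 6.99% of the counts in complete medium and 6.59% to 8.41% after deprivation. Libraries of the same group differed by more than sampling noise, with a mean chi-square per gene of 1.51 to 5.39. This does not show that they come from separate cultures. Each library was counted as its own sample.

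As background, mammalian cells make serine from the glycolytic intermediate 3-phosphoglycerate in successive steps carried out by PHGDH, PSAT1 and PSPH, and take it up through neutral amino acid transporters. Serine feeds glycine, folate-bound methyl units, glutathione, sphingolipids and phosphatidylserine. When an amino acid is scarce, uncharged tRNA activates the kinase GCN2 (EIF2AK4), phosphorylated eIF2 slows general translation, and translation of the transcription factor ATF4 increases. ATF4, with partners of the C/EBP family, induces genes of amino acid synthesis, transport and tRNA charging, many of them through promoter elements that hold a TGATG core.

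Deprivation was accompanied by many small changes and a short list of larger ones. PHGDH, PSAT1, the cystine transporter gene SLC7A11 and a set of ATF4-linked genes were higher without serine and glycine, and TAGLN, which encodes an actin-binding protein of contractile cells, showed the largest fall among called protein-coding genes with a mean of at least 50 counts. With edgeR's quasi-likelihood test and Benjamini-Hochberg adjustment, 1342 of 13747 genes (9.76%) passed an adjusted p of 0.05, of which 678 were higher (4.93%) and 664 lower (4.83%). Changes were small, with a median size of 0.18 (log2) among called genes. Only 88 reached 0.5, 55 of them higher and 33 lower, and 13 reached 1. In bulk RNA, fewer cells that express a gene and less RNA per cell cannot be told apart. The count of called genes fell to 685, 800 and 829 when library 28, 29 or 35 was left out, and to 96 when the spread was estimated over all 36 libraries. In that fit the lists with more than 3 genes called in 1 direction were cytosolic tRNA synthetases (8), ATF4 regulators (7), ATF4 targets (7), amino acid transporters (5) and secreted stress factors (4), all higher. Scaling by total counts alone gave 507 higher and 875 lower genes.

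**Figure D1:**
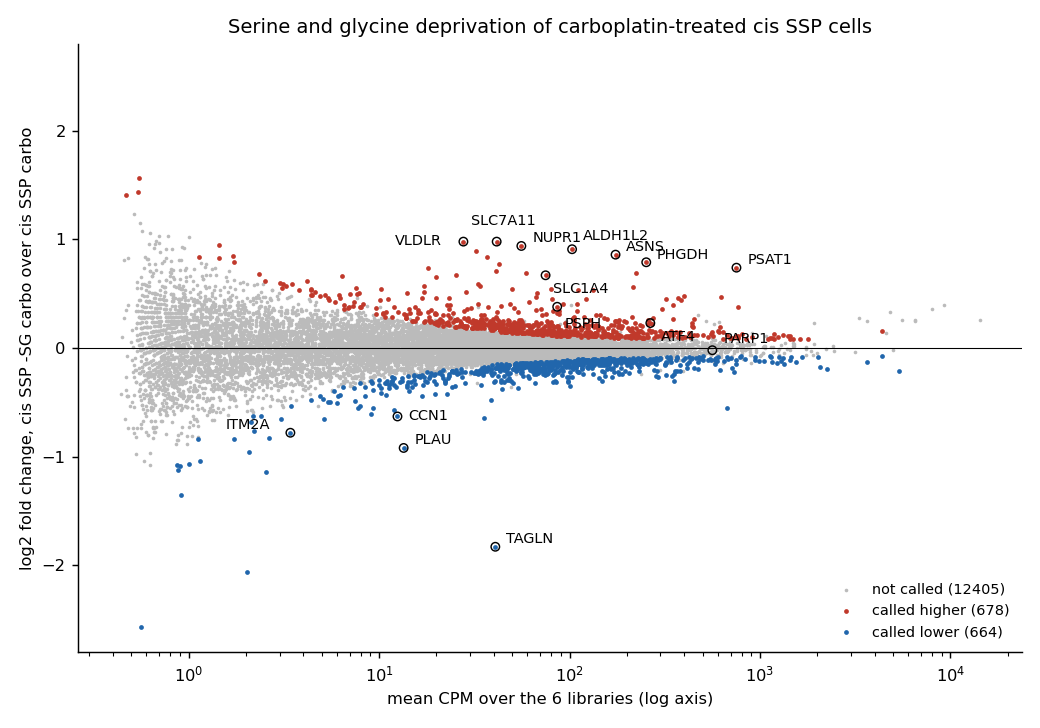
Log2 fold change of cis SSP -SG carbo over cis SSP carbo (y axis) against mean CPM over the 6 libraries (x axis, log scale) for the 13747 genes tested. The 678 genes called higher are red, the 664 called lower are blue, and named genes are circled: serine synthesis and ATF4-linked genes lie at the top and TAGLN, at -1.83, far below the rest of the genes with similar levels.

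All 3 enzymes of serine synthesis rose, and none of their libraries overlapped between the groups, as held for 3616 of the 13747 genes tested (26.3%). PHGDH, which commits 3-phosphoglycerate to serine (ENSG00000092621.7, chromosome 1, 120191034 to 120286841, plus strand, GRCh37), was measured at 184, 189 and 185 CPM in complete medium and at 316, 319 and 323 CPM after deprivation. This is a log2 fold change of 0.79 ± 0.0264 (SE), or 1.72-fold, with an adjusted p of 2.83e-17. PSAT1, the transaminase of the next step (chromosome 9, 80912041 to 80945009, plus strand), lay at 552, 584 and 557 CPM against 920, 936 and 963 CPM, which is 1.67-fold (log2 0.74 ± 0.0246 SE, adjusted p = 2.83e-17). The increase of PSPH, the phosphatase that releases serine (chromosome 7, 56078744 to 56119297, minus strand), was smaller. Its libraries stood at 76.3, 76.0 and 73.0 CPM and at 95.9, 95.4 and 100 CPM, a 1.30-fold difference (log2 0.38 ± 0.0368 SE, adjusted p = 7.39e-08). PSPH shares sequence with the pseudogene PSPHP1, whose counts equalled 3.88% of those of PSPH. The 3 calls were kept under every alternative fit, including the fit with 96 calls.

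**Figure D2:**
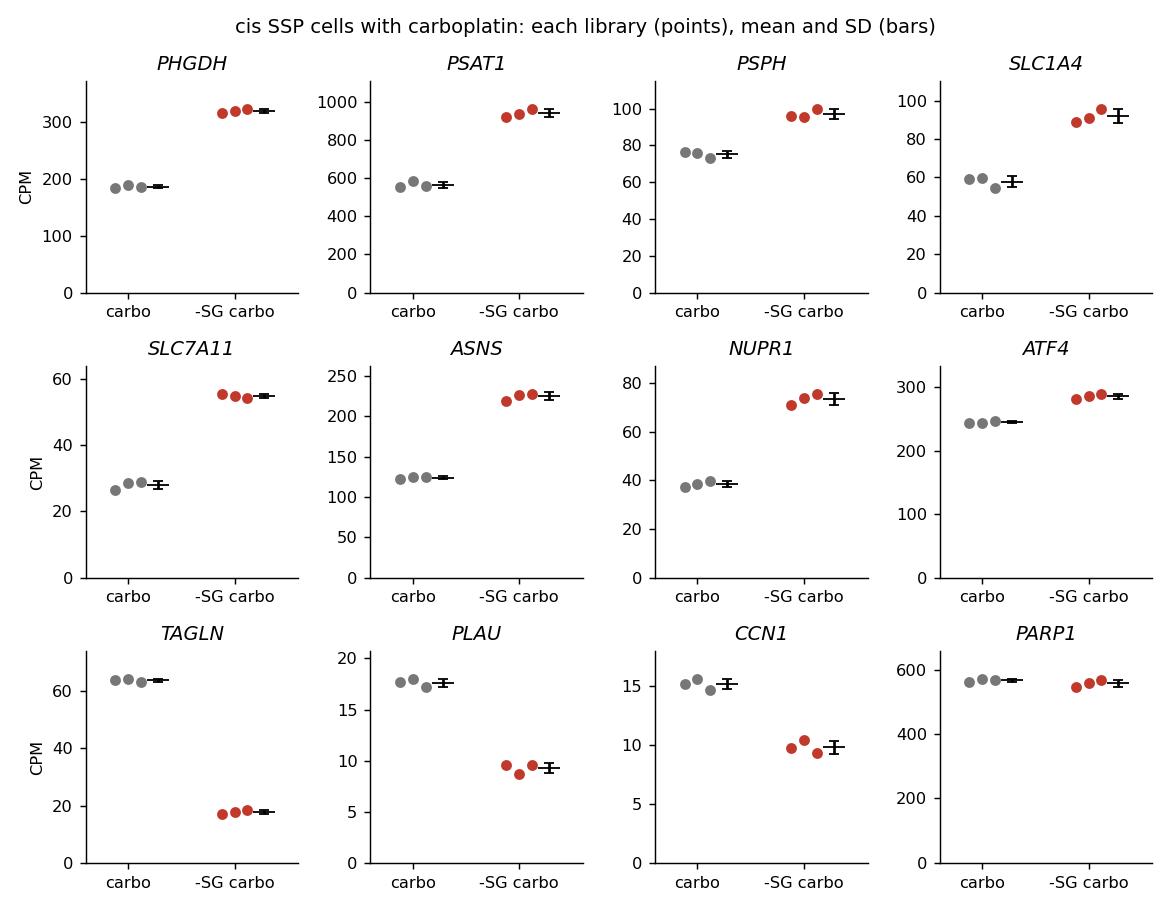
CPM (y axis, from 0) of 12 genes in each of the 3 libraries of cis SSP carbo (grey) and cis SSP -SG carbo (red), with the mean and SD of each group beside the points. The groups are apart for each gene shown except PARP1, at 562 to 571 and 546 to 567 CPM, and for 26.3% of all genes tested.

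ATF4 itself and 11 further regulators of its pathway rose, of 21 tested in a list of 22, and none fell. The list's median log2 fold change was 0.30, against 0.00 over all genes tested. ATF4 lay at 244, 244 and 247 CPM in complete medium and at 282, 286 and 290 CPM after deprivation (log2 0.23 ± 0.0260 SE, adjusted p = 8.48e-07). The largest increase of the list belonged to NUPR1, a stress-induced chromatin protein, at 37.2, 38.3 and 39.6 CPM against 70.7, 73.6 and 75.5 CPM (log2 0.94 ± 0.0448 SE, adjusted p = 5.06e-14). JDP2, a bZIP repressor that binds the same elements as ATF4, rose from 31.3, 32.4 and 30.7 CPM to 51.4, 54.7 and 53.9 CPM (log2 0.77 ± 0.0493 SE, adjusted p = 1.82e-11). CHAC1, a glutathione-degrading enzyme, and TRIB3, a pseudokinase that restrains ATF4, showed log2 fold changes of 0.59 ± 0.0617 and 0.54 ± 0.0366 (SE). Further members that rose were ATF5, DDIT4, EIF4EBP1, KLHL24, ATF3, CEBPG and CEBPB, at 0.30 to 0.54 on the log2 scale. EIF2AK4, the gene of the kinase GCN2, lay at 105 to 111 and 102 to 103 CPM (log2 -0.07 ± 0.0339 SE, adjusted p = 0.181), and EIF2S1, which encodes the alpha subunit of its substrate eIF2, at 156 to 163 and 159 to 166 CPM.

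Of 14 tested ATF4 targets outside serine synthesis, 12 rose and 1 fell, with a median log2 fold change of 0.38. VLDLR, a lipoprotein receptor, was found at 18.6, 18.1 and 19.4 CPM in complete medium and at 34.8, 38.2 and 37.1 CPM after deprivation (log2 0.98 ± 0.0608 SE, adjusted p = 1.03e-11). ASNS, asparagine synthetase (chromosome 7, 97480989 to 97501854, minus strand), lay at 122, 125 and 125 CPM against 219, 227 and 228 CPM, which is 1.82-fold (log2 0.86 ± 0.0291 SE, adjusted p = 2.83e-17). The mitochondrial folate enzyme ALDH1L2 increased from 72.0, 74.4 and 69.1 CPM to 130, 136 and 137 CPM (log2 0.91 ± 0.0364 SE, adjusted p = 1.39e-15). It overlaps WASHC4 on the opposite strand, whose counts equalled 87.7% of its own, and the strand setting of the counting is not given in the sources used here. PCK2, the mitochondrial phosphoenolpyruvate carboxykinase, stood at 168 to 174 and at 269 to 278 CPM (log2 0.69 ± 0.0280 SE). The member that fell was ALDH18A1, which makes proline precursors (log2 -0.11 ± 0.0293 SE, adjusted p = 0.0169, called in 2 of the 6 fits without a library).

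Promoter sequences are shown because many members of the lists of serine synthesis, ATF4 regulators and ATF4 targets moved together. In all, 26 genes of these 3 lists rose, of which ALDH1L2, EIF4EBP1, GPT2, NUPR1, PSPH and SHMT2 had no entry in the RefSeq promoter table (GRCh38.p14) and 20 had an entry. The core of the amino acid response element, TGATGNAA, was searched on both strands (TTNCATCA on the other) in the 250 bases before each annotated start. It was present for 7 of the 20 genes (35%), namely ASNS, ATF3, BCAT1, CEBPG, CHAC1, GOT1 and JDP2, and for 1061 of the 27305 genes of the table (3.89%). The lists were written for ATF4 and serine synthesis, so these shares may reflect the choice of lists and not the deprivation. List members that did not rise were not counted. The match begins 68 bases before the start in ASNS, 209 in CHAC1 and 16 in JDP2. No match was found in this window of PHGDH. The 4 windows are chr7:97872409-97872658 (minus strand, ASNS), chr15:40953221-40953470 (plus, CHAC1), chr14:75427772-75428021 (plus, JDP2) and chr1:119711684-119711933 (plus, PHGDH). They are written 5′ to 3′, with the matched letters in capitals:
ASNS: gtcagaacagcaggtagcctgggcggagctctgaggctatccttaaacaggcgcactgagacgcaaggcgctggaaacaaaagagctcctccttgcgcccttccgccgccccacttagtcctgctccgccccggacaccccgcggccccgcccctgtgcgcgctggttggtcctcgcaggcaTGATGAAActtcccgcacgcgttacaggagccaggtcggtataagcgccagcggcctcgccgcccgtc
CHAC1: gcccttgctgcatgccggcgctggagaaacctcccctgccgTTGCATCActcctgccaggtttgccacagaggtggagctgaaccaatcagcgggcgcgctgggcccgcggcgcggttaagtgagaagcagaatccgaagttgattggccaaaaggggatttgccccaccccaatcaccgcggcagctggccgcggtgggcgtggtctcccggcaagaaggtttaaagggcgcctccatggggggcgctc
JDP2: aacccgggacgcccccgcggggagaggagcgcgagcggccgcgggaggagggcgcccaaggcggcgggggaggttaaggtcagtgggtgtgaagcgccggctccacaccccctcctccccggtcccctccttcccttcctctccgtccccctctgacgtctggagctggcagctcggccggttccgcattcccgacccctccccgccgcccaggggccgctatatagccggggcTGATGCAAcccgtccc
PHGDH: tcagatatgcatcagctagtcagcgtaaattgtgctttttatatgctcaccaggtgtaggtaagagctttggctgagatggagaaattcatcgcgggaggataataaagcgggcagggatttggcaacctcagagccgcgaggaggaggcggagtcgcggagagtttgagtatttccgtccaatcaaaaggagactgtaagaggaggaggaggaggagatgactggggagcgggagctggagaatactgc

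Amino acid transporters moved mostly in the same direction, with 10 of 21 tested genes higher, 2 lower and a median log2 fold change of 0.10. SLC7A11, the cystine/glutamate exchanger (chromosome 4, 139085251 to 139163503, minus strand), lay at 26.5, 28.6 and 28.8 CPM in complete medium and at 55.5, 54.9 and 54.2 CPM after deprivation, which is 1.97-fold (log2 0.98 ± 0.0504 SE, adjusted p = 2.65e-13). SLC1A4, a neutral amino acid exchanger that carries serine, rose from 59.3, 59.8 and 54.3 CPM to 88.8, 90.9 and 95.8 CPM (log2 0.67 ± 0.0426 SE, adjusted p = 1.43e-11). For SLC1A5, its relative best known for glutamine, the libraries stood at 296, 314 and 293 CPM and at 390, 391 and 409 CPM (log2 0.40 ± 0.0282 SE, adjusted p = 9.36e-11). The glycine transporter SLC6A9 and the large neutral amino acid transporter SLC7A5 rose by 0.51 ± 0.0440 and 0.47 ± 0.0271 on the log2 scale (SE). The 2 that fell were SLC6A6, which carries taurine (-0.22 ± 0.0353), and SLC43A2, which carries large neutral amino acids (-0.20 ± 0.0471). SLC7A2 and SLC7A6, transporters of cationic amino acids, were not called, at log2 fold changes of -0.06 and -0.01.

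The enzymes that move the serine hydroxymethyl unit through the folate pool changed in part. Of 18 tested folate and glycine cleavage genes, 7 rose and 1 fell, and the median log2 fold change was 0.09. The 7 became 4 without library 35. Besides ALDH1L2, the mitochondrial enzymes MTHFD2 and SHMT2 rose. MTHFD2 lay at 298, 323 and 313 CPM and at 418, 423 and 439 CPM (log2 0.46 ± 0.0282 SE, adjusted p = 8.14e-12), and SHMT2, which converts serine to glycine, at 248 to 251 and 286 to 295 CPM (log2 0.22 ± 0.0259 SE). The cytosolic MTHFD1 was not called, at 175 to 183 and 178 to 186 CPM (log2 0.03 ± 0.0296 SE, adjusted p = 0.643). SFXN1, the mitochondrial serine carrier, fell by 0.15 on the log2 scale (SE 0.0296, adjusted p = 0.00158), from 181, 182 and 186 CPM to 160, 163 and 169 CPM.

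Cytosolic and mitochondrial tRNA charging enzymes differed in their counts of called genes. Among 21 cytosolic aminoacyl-tRNA synthetase genes 12 rose and 3 fell, with a median log2 fold change of 0.20, and 12 were called higher in each of the 6 fits without a library. CARS1, for cysteine, lay at 109 CPM in each complete-medium library and at 152, 161 and 157 CPM after deprivation (log2 0.53 ± 0.0317 SE, adjusted p = 5.57e-12). GARS1, for glycine, rose from 324 to 342 CPM to 453 to 479 CPM (log2 0.48 ± 0.0268 SE), and MARS1 and EPRS1 by 0.45 and 0.38. SARS1, the synthetase that charges serine tRNA, lay at 201 to 205 and 233 to 239 CPM (log2 0.23 ± 0.0270 SE, adjusted p = 1.98e-06). VARS1, FARSB and HARS1 fell, by 0.18, 0.15 and 0.12 on the log2 scale, and 1 was called lower without library 28 or 35. None of the 17 mitochondrial synthetase genes was called in either direction in the main fit, and their median was -0.04. With total counts, with no filter on low counts, with the length trend removed or without library 30, 1 was called lower. The difference between these 2 lists was not tested.

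Secreted stress factors and the endoplasmic reticulum branch were next. Of 7 tested secreted factors, 4 rose: ADM2, a calcitonin-family peptide, by 0.74 ± 0.0738, the glycoprotein hormone gene STC2 by 0.69 ± 0.0426, the activin subunit gene INHBE by 0.51 ± 0.0841 and VEGFA by 0.32 ± 0.0416 on the log2 scale (SE). STC2 lay at 44.9, 44.3 and 46.4 CPM against 74.2, 72.9 and 71.5 CPM. GDF15, another stress hormone, was not called, at 105 to 120 and 114 to 135 CPM. ADM2 overlaps SBF1 on the opposite strand, whose counts were 1430% of its own. Among 23 tested genes of endoplasmic reticulum chaperones and the unfolded protein response, 10 fell and 4 rose, with a median of -0.08. The protein disulfide isomerases PDIA4 and PDIA6 fell by 0.18 each and the chaperone gene HSPA5 by 0.11, from 1485 to 1512 CPM to 1367 to 1413 CPM. DNAJB9, XBP1, HERPUD1 and DNAJC3 rose by 0.19 to 0.32, and XBP1, the transcription factor of the IRE1 branch, lay at 91.6 to 97.4 and 113 to 118 CPM. Without libraries 29 and 35, taken out in turn, the count of 10 fell to 5 and 6.

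**Figure D3:**
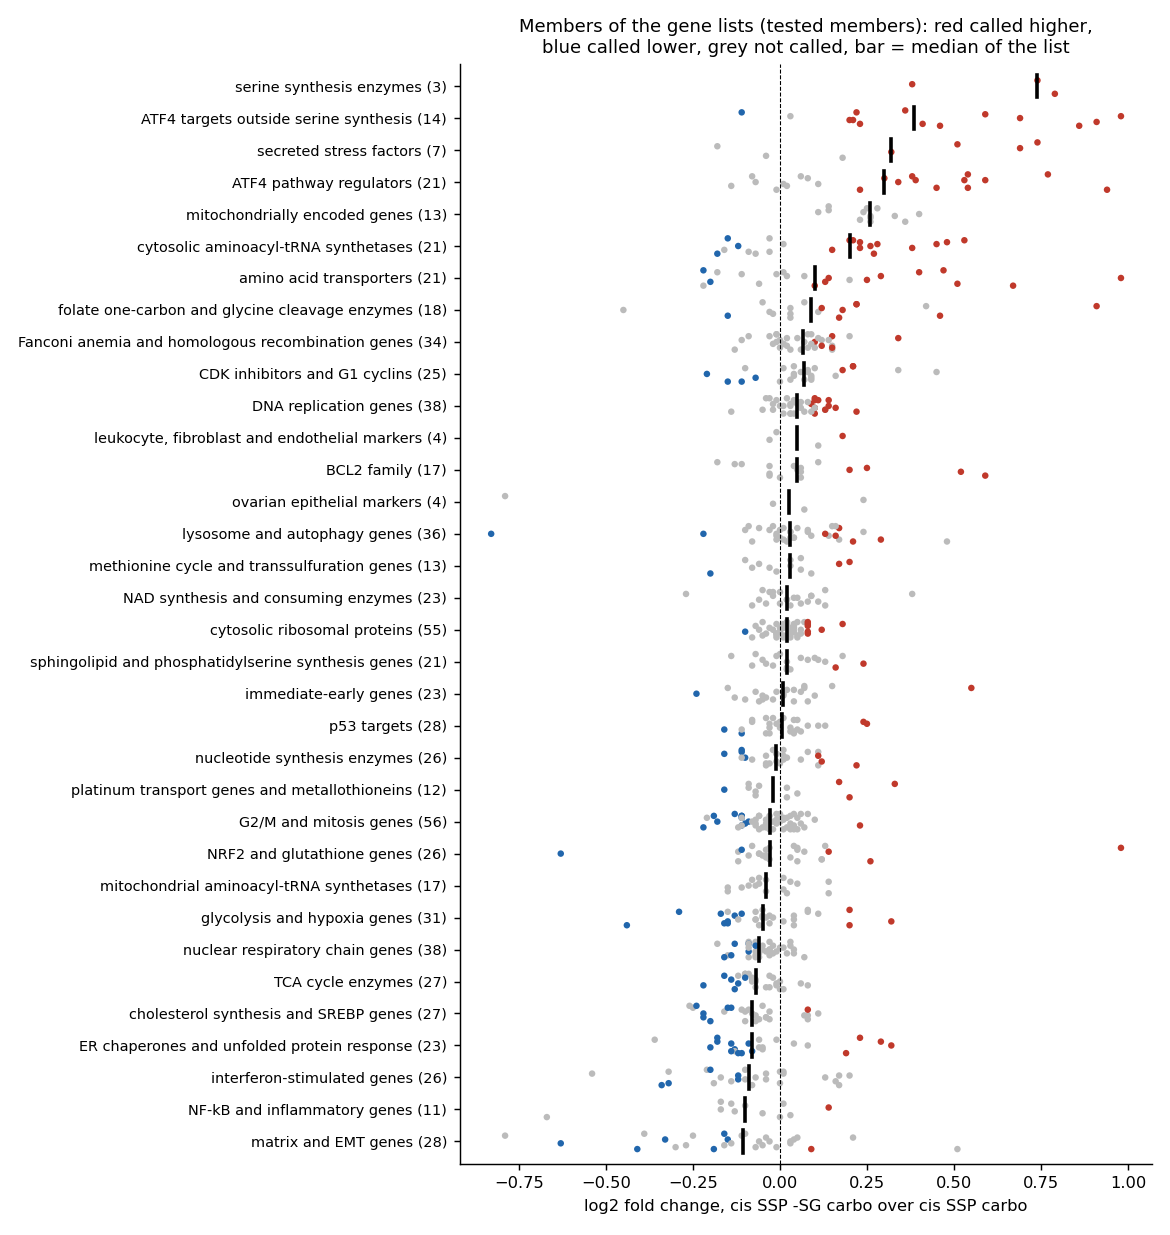
Log2 fold change of cis SSP -SG carbo over cis SSP carbo (x axis) for the tested members of each of 34 gene lists (rows, number tested in brackets). Red points were called higher, blue lower and grey points were not called, the black bar is the list's median and the dashed line is the median of all genes; serine synthesis (0.74) and ATF4 targets (0.38) lie highest and matrix and EMT genes lowest (-0.11).

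The genes with the largest falls had different roles. TAGLN, transgelin (ENSG00000149591.12, chromosome 11, 117070086 to 117078180, plus strand), lay at 63.7, 64.2 and 63.2 CPM in complete medium and at 17.1, 17.9 and 18.4 CPM after deprivation. This is 3.56-fold lower (log2 -1.83 ± 0.0528 SE, adjusted p = 2.61e-18), and the groups are far apart. PCSK7 overlaps it on the opposite strand with 164% of its counts. PLAU, the urokinase plasminogen activator (chromosome 10, 75668935 to 75677254, plus strand), fell from 17.7, 18 and 17.2 CPM to 9.59, 8.68 and 9.53 CPM (log2 -0.92 ± 0.0810 SE, adjusted p = 1.16e-08). CCN1, a matricellular protein, stood at 15.2, 15.6 and 14.7 CPM against 9.72, 10.4 and 9.28 CPM (log2 -0.63 ± 0.0833 SE, adjusted p = 8.89e-06). VCL, which links actin to adhesion sites, is named here after its values were seen, and lay at 803, 806 and 799 CPM and at 532, 541 and 564 CPM (log2 -0.55 ± 0.0239 SE, adjusted p = 6.61e-15). ACTN3, an actin crosslinker of skeletal muscle, lay at 3.58, 2.58 and 3.67 CPM and at 0.872, 0.84 and 0.627 CPM (log2 -2.06 ± 0.244 SE, adjusted p = 1.70e-06), from at most 69 counts in a library.

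The other genes among the 10 largest falls were ITM2A (-0.78 ± 0.170), ADAMTS3 (-0.65 ± 0.166), HIC1 (-0.65 ± 0.130), VGF (-0.64 ± 0.102), AQP3 (-0.61 ± 0.105), PHLDA2 (-0.57 ± 0.0910) and MUC3A (-0.55 ± 0.107), with log2 fold changes and SE in brackets. AQP3 is a water and glycerol channel, VGF a neuropeptide precursor, HIC1 a transcriptional repressor and ADAMTS3 a procollagen protease. HIC1 overlaps SMG6, which had 871% of its counts. Among the risers, TCP11L2 (0.71 ± 0.0494 SE) was the 1 gene of the 10 largest outside the ATF4, serine, folate, transporter and secreted factor lists, and it overlaps CKAP4, with 661% of its counts. In the matrix and EMT list 6 of 28 tested genes fell and 1 rose, with a median of -0.11. SPARC, a collagen-binding glycoprotein, fell by 0.41 ± 0.0936 (SE). COL3A1 lay at 2366 to 2421 and 2054 to 2142 CPM (log2 -0.19 ± 0.0208 SE). VIM and COL5A2 were not called, at 0.04 and -0.01, and CDH2, N-cadherin, rose by 0.09. In the fit over 36 libraries 3 genes of the list were called lower.

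Cell cycle genes moved little and in both directions. Of 56 tested genes of G2/M and mitosis, 10 fell and 1 rose, the median was -0.03, and the largest fall was that of CDC20, an activator of the anaphase-promoting complex, from 161 to 167 CPM to 136 to 143 CPM (log2 -0.22 ± 0.0310 SE, adjusted p = 2.71e-05). The mitotic kinase PLK1 fell by 0.18 ± 0.0344 and CKS2 by 0.19 ± 0.0402 (SE), whereas NUSAP1, a spindle protein, rose by 0.23 ± 0.0358. NUSAP1 overlaps OIP5-AS1 on the same strand, whose counts equalled 189% of its own. TOP2A, which untangles chromosomes, was not called, at 695 to 710 and 692 to 729 CPM. Of 38 DNA replication genes 11 rose and none fell, with a median of 0.05. POLA1, a subunit of the priming polymerase, showed 0.22 ± 0.0481 and PCNA, the sliding clamp, 0.14 ± 0.0254 (SE) on the log2 scale, with PCNA at 346, 360 and 349 CPM and at 384, 380 and 395 CPM. The 11 replication calls became 3, 6 and 9 without libraries 28, 29 and 30, and 10, 4 and 9 without libraries 34, 35 and 36. They became 4 with total counts. The 10 G2/M calls became 4, 5 and 3, and 5, 3 and 7, in the same order.

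In the list of cyclins and their inhibitors, which also holds E2F and RBL genes, 4 of 25 fell and 3 rose. The 3 that rose were E2F1, RBL1 and RBL2, so no cyclin or inhibitor gene was called higher. The 4 became 1 without library 28, 29 or 35 and 2 without library 30 or 34. CCND1, cyclin D1, lay at 390, 401 and 394 CPM and at 343, 332 and 342 CPM (log2 -0.21 ± 0.0251 SE, adjusted p = 1.47e-06), and E2F1, RBL1 and RBL2 rose by 0.21, 0.21 and 0.18. CDKN1A, the p53-induced inhibitor p21, lay at 369 to 385 and 343 to 357 CPM (log2 -0.11 ± 0.0257 SE, adjusted p = 0.00804), a call kept in 3 of the 6 fits without a library. Of 28 p53 targets, 2 rose (CCNG2 and BBC3) and 2 fell (PLK2 and CDKN1A), with a median of 0.01. That is 7.14% in each direction, against 4.93% higher and 4.83% lower over all genes tested. Each count was 1 in 3 of the 6 fits without a library, and MDM2 was not called, at 410 to 414 and 421 to 425 CPM. In the Fanconi anemia and homologous recombination list, whose products repair interstrand crosslinks, 5 of 34 rose and none fell. RMI2, a subunit of the BLM complex, rose by 0.34 ± 0.0610 and BRCA1 by 0.15 ± 0.0322 (SE), and FANCD2 was not called, at 86.8 to 88.9 and 83.7 to 93.7 CPM. The count of 5 was 2 without library 28, 29 or 35, and 2 with total counts. Within the BCL2 family 4 of 17 rose, among them the BH3-only genes PMAIP1 (0.52 ± 0.0612), BBC3 (0.25 ± 0.0618) and HRK (0.59 ± 0.172, at 2.41 to 2.64 and 3.07 to 4.34 CPM), and none fell. The count was 2 without library 30, and HRK was called in 1 of the 6 fits without a library. BAX and MCL1 were not called, at -0.03 and 0.06.

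Central carbon metabolism showed small falls. Of 31 glycolysis and hypoxia genes, 8 fell and 3 rose, with a median of -0.05. PKM, pyruvate kinase, lay at 2190, 2207 and 2187 CPM and at 1907, 1932 and 1973 CPM (log2 -0.17 ± 0.0203 SE, adjusted p = 1.47e-06), ALDOC, an aldolase, fell by 0.44 ± 0.0744, and the glucose transporter gene SLC2A3 by 0.29 ± 0.0479. GAPDH was not called, at 2465 to 2528 and 2371 to 2479 CPM. In the TCA cycle 6 of 27 fell and none rose, led by OGDH (-0.22 ± 0.0386) and with CS, citrate synthase, at -0.13 ± 0.0279 (SE). Of 38 nuclear respiratory chain genes, 6 fell and none rose. These calls became 2, 2 and 4 (TCA cycle) and 2, 1 and 2 (respiratory chain) without libraries 28, 29 and 30, and 3, 2 and 6, and 2, 1 and 7, without libraries 34, 35 and 36. In the list of cholesterol synthesis genes, which also holds genes of fatty acid synthesis, 6 of 27 fell and 1 rose. Those that fell included DHCR7 (-0.22 ± 0.0398), an enzyme late in cholesterol synthesis, and the cholesterol carrier STARD4 (-0.24 ± 0.0557). FASN (-0.22 ± 0.0383), which fell, and SCD, which rose, belong to fatty acid synthesis.

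The 13 mitochondrially encoded genes had a median log2 fold change of 0.26, and none was called in the main fit. In some alternatives 1 was called higher: without library 30 or 36, with DESeq2, with no filter on low counts and with the length trend removed. Each log2 fold change was above 0, and the libraries of the groups overlap for 11 of the 13. MT-CO1 and MT-CO3 do not overlap. MT-CO1 lay at 8501, 6832 and 8638 CPM and at 11518, 11098 and 8875 CPM (log2 0.40 ± 0.158 SE, adjusted p = 0.248), and MT-ND4 at 10745 to 14240 and 12899 to 17259 CPM. These genes are transcribed together in long precursors and are not independent of each other. The share of counts on mitochondrial genes moves in the same way, as given above, and its part in the other differences was not tested.

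None of 23 NAD synthesis and consuming enzymes was called in either direction in the fit of the 6 libraries, with a median of 0.02. In that fit 4.93% of all genes tested were called higher and 4.83% lower. In the list of NAD enzymes 1 was called higher without library 29 or 34, and with protein-coding genes alone. The same count was found with the size factors of DESeq2 and with at least 10 counts required in every library. PARP1, the main consumer of NAD after DNA damage, lay at 562, 571 and 567 CPM and at 546, 559 and 567 CPM (log2 -0.02 ± 0.0232 SE, adjusted p = 0.718), so that the difference was within the spread of the libraries, and SIRT1 stood at 319 to 334 and 327 to 340 CPM. In the NRF2 and glutathione list 3 of 26 rose and 2 fell, the latter 0 without library 28, 30 or 34. SLC7A11 had the largest difference, NFE2L2, which encodes NRF2, rose by 0.26 ± 0.0318, and NQO1 by 0.14 ± 0.0290 (SE). NFE2L2 overlaps HNRNPA3, with 269% of its counts. FTL and GSTP1 were not called. Of 13 genes of the methionine cycle and transsulfuration, CBS (0.20 ± 0.0263) and ADI1 (0.17 ± 0.0383) rose and MRI1 fell by 0.20 ± 0.0556 (called in 1 of the 6 fits without a library), and CTH, which makes cysteine, was not called at 3.15 to 4.39 CPM. Of 21 sphingolipid and phosphatidylserine genes, KDSR (0.24 ± 0.0369) and ORMDL1 (0.16 ± 0.0447, called in 2 of the 6 fits without a library) rose and none fell. Among 26 nucleotide synthesis genes 3 rose, TYMS (0.12 ± 0.0295) and TK1 (0.11 ± 0.0341) among them, and 4 fell (IMPDH1, CAD, NME1 and IMPDH2), by 0.10 to 0.16. The 3 became 1 without library 28 or 35, the 4 became 1 without library 28 and 2 without library 29, 30 or 34, and TK1 and NME1 were each called in 1 of the 6 fits without a library.

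The remaining lists gave few calls, to be read beside the 4.93% called higher and 4.83% called lower over all genes tested. Of 26 tested interferon-stimulated genes 5 fell and none rose, with IFIT1 at 18.9 to 19.6 and 14.7 to 15.4 CPM (log2 -0.34 ± 0.0702 SE, adjusted p = 0.00195). IFIT1 overlaps LIPA on the opposite strand, with 1137% of its counts. The 5 became 3, 1 and 5 without libraries 28, 29 and 30, and 2, 2 and 5 without libraries 34, 35 and 36. Of 36 lysosome and autophagy genes 5 rose and 2 fell, with ULK1, the kinase that starts autophagy, at 0.29 ± 0.0554 and the cargo receptor SQSTM1 at 0.21 ± 0.0320 (SE). TFEB, the lysosomal transcription factor, fell by 0.83 ± 0.210 but lay at only 1.32 to 4.15 CPM. The 5 became 3 without library 28 or 35 and with total counts, and the 2 became 0 or 1 in each fit without a library. Of 55 cytosolic ribosomal protein genes 7 rose and 1 fell, by at most 0.18. The 7 became 3, 3 and 5 without libraries 28, 29 and 30, 12, 2 and 4 without libraries 34, 35 and 36, and 2 with total counts. Of 11 NF-kB genes 1 rose (NFKBIA, called in 2 of the 6 fits without a library), and of 23 immediate-early genes KLF4 rose and EGR1 fell. In the list of platinum transport genes and metallothioneins 3 of 12 rose and 1 fell: MT2A, a metal-binding protein, at 34.3 to 39.0 and 45.9 to 46.2 CPM (log2 0.33 ± 0.0526 SE), the copper transporter SLC31A1 by 0.20 ± 0.0346, the organic cation exporter SLC47A1 by 0.17 ± 0.0476, and the volume-regulated channel subunit LRRC8A lower by 0.16 ± 0.0345. Of the 4 tested leukocyte, fibroblast and endothelial markers PDGFRA rose by 0.18 ± 0.0278, and of 4 ovarian epithelial markers none was called.

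To ask whether this response was shared by the line from which the cells arose, the deprivation effect under carboplatin in cis SSP cells was compared with that in cis cells by an interaction term, the difference of both log2 fold changes. The 6 libraries described above enter this and the next comparisons, so these are not independent of each other. The cis SSP cells had met medium without both amino acids before, so line and earlier culture cannot be told apart here. Of 14767 genes, 8313 (56.3%) differed. The effect in cis SSP cells was above that in cis cells for 4487 (30.4%) and below it for 3826 (25.9%). Libraries 23 and 24 of cis -SG carbo had 17.9% and 14.9% of reads on no feature, and 7435 of 15333 genes (48.5%) were called without them. In cis cells alone, 9992 of 14236 genes (70.2%) were called. Scaled by total counts alone, the split was 3444 above and 4874 below.

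All 56 G2/M and mitosis genes fell in cis cells (35% of all genes did), by a median of -1.48 on the log2 scale, against 10 in cis SSP cells and a median of -0.03, and the interaction was called for all 56, also without libraries 23 and 24. PLK1 showed -2.36 ± 0.0493 in cis and -0.18 ± 0.0344 in cis SSP cells, a difference of 2.19 ± 0.0601 (SE, adjusted p = 3.90e-19). For DNA replication, the interaction was higher for 37 of 38 genes, and in the list of cholesterol synthesis for 24 of 27. PARP1 fell by 0.78 ± 0.0419 in cis cells, from 582 ± 3.56 to 331 ± 16.5 CPM (SD, n = 3), and the difference was 0.77 ± 0.0410 (SE, adjusted p = 6.39e-14). PSAT1 was not called in cis cells (-0.05 ± 0.0364) and the difference was 0.80 ± 0.0395 (SE, adjusted p = 1.52e-14). For PHGDH the effect in cis cells was 0.40 ± 0.0409 and the difference 0.40 ± 0.0430 (adjusted p = 2.38e-08). For SLC1A5 the difference was 0.47 ± 0.0532 and for SLC1A4 it was -0.21. Among 21 amino acid transporters the interaction was higher for 5 and lower for 8, with a median of -0.07. Without libraries 23 and 24 it was higher for 5 and lower for 10. PSPH differed by 0.14 ± 0.0568 (adjusted p = 0.0413), a call lost without libraries 23 and 24 (0.02 ± 0.0607, adjusted p = 0.783). ATF4 regulators went mostly the other way, but ATF4 targets outside serine synthesis did not. For those targets the interaction was higher for 9 of 15 and lower for 4, with a median of 0.23. Without libraries 23 and 24 these counts were 7 and 4. For cytosolic synthetases the interaction was higher for 10 of 21 and lower for 7, with a median of 0.09. Without those 2 libraries it was higher for 7 and lower for 7. The interaction was lower for 13 of 21 ATF4 regulators and higher for 4, and NUPR1 rose by 2.89 ± 0.102 in cis cells from a level of 5.93 ± 0.848 CPM (SD, n = 3), a difference of -1.93 ± 0.106 (SE, adjusted p = 1.16e-13). ATF4 itself did not pass the test (-0.01 ± 0.0443, adjusted p = 0.883).

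**Figure D4:**
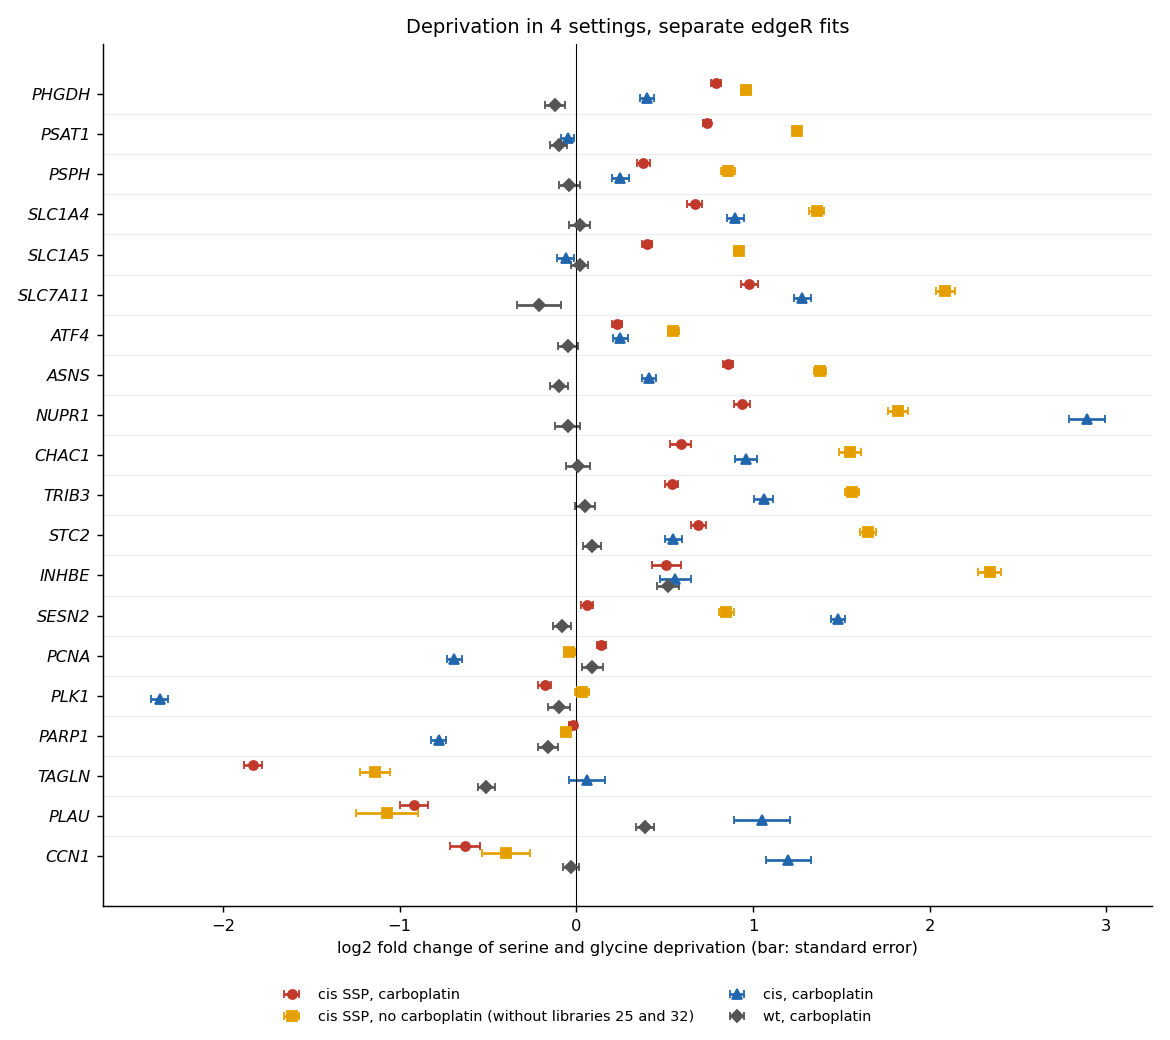
Log2 fold change of serine and glycine deprivation (x axis, with its SE) for 20 genes in carboplatin-treated cis SSP cells (red circles), cis SSP cells without carboplatin, libraries 25 and 32 left out (orange squares), cis cells with carboplatin (blue triangles) and wt cells with carboplatin (grey diamonds). For serine synthesis and most ATF4-linked genes shown the orange squares lie to the right of the red circles and the grey diamonds near 0, and PLK1 reaches -2.36 only in cis cells.

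In wt cells with carboplatin, deprivation left 104 of 14454 genes (0.720%) called, 90 higher (0.623%) and 14 lower (0.0969%). The common dispersion, which measures the spread between libraries, was 0.00508 in that fit and 0.000805 in the fit of cis SSP cells. Equal effects can therefore be called less often in wt cells, and the counts do not compare the size of the responses. The interaction of cis SSP against wt cells was called for 455 of 15285 genes (2.98%), 215 higher (1.41%) and 240 lower (1.57%), or 178 and 309 with total counts. All 3 serine synthesis enzymes were higher in this interaction: PHGDH by 0.90 ± 0.0618 (adjusted p = 1.02e-07), PSAT1 by 0.84 ± 0.0542 (adjusted p = 5.48e-08) and PSPH by 0.42 ± 0.0678 (adjusted p = 0.00200), on the log2 scale with SE. In wt cells their own changes were -0.12 ± 0.0550, -0.10 ± 0.0479 and -0.04 ± 0.0583, none called. The interaction was also higher for 11 of 14 ATF4 targets, 10 of 22 ATF4 regulators, 11 of 21 cytosolic synthetases and 7 of 23 transporters, and it was lower for none of the ATF4 lists. ATF4 differed by 0.27 ± 0.0631 (adjusted p = 0.0247), SLC7A11 by 1.19 ± 0.123 (adjusted p = 2.49e-05) and SLC1A4 by 0.64 ± 0.0768 (adjusted p = 8.59e-05). TAGLN fell in both lines, by 0.51 ± 0.0494 in wt cells from 422 ± 6.10 to 300 ± 14.2 CPM (SD, n = 3), and the difference was -1.33 ± 0.0653 (SE, adjusted p = 2.32e-09). PLAU rose by 0.39 ± 0.0509 in wt cells and fell in cis SSP cells, a difference of -1.32 ± 0.0789 (adjusted p = 3.02e-08). Of 33 glycolysis and hypoxia genes the interaction was lower for 10. The count of 455 was 224, 228 and 208 without libraries 4, 5 and 6 (wt carbo), 1429 without library 11 (wt -SG carbo), 214, 234 and 248 without libraries 28, 29 and 30 and 272, 226 and 268 without libraries 34, 35 and 36.

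The effect of deprivation with carboplatin was finally set against that without it in cis SSP cells. With all libraries, 4 of 14231 genes (0.0281%) differed, and each had the smaller increase under carboplatin. INHBE was measured at 14.6 ± 1.22 and 68.5 ± 2.77 CPM without carboplatin (complete and deprived medium, SD, n = 3) and at 11.6 ± 0.928 and 16.4 ± 1.26 CPM with it, a difference of the log2 fold changes of -1.74 ± 0.137 (SE, adjusted p = 0.00172). STC2 (-0.98 ± 0.0928, adjusted p = 0.00479), the natriuretic peptide receptor gene NPR2 (-0.98 ± 0.103, adjusted p = 0.00888) and SESN2, a leucine sensor (-0.80 ± 0.0944, adjusted p = 0.0198), were the others. SESN2 was not called under carboplatin, at 95.5 to 96.5 and 97.8 to 101 CPM. The starting levels of some of these genes differed. In complete medium, NPR2 had 1156 counts without and 5624 with carboplatin, summed over 3 libraries and not scaled for depth. The sums were 3102 and 5286 for SESN2, 1974 and 2482 for STC2, and 702 and 636 for INHBE. The part of the starting level in the smaller increases was not tested.

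The libraries without carboplatin hold library 25 and library 32, whose levels depend on transcript length. Without both, which leaves 2 libraries in each of those groups, 2167 of 14442 genes (15%) differed, 826 higher (5.72%) and 1341 lower (9.29%), and deprivation without carboplatin changed 4996 of 13925 genes (35.9%) against 3 of 13736 (0.0218%) with them. In that fit the rise was smaller with carboplatin for all 3 serine synthesis enzymes: PHGDH -0.18 ± 0.0370 (adjusted p = 0.00125), PSAT1 -0.51 ± 0.0343 (adjusted p = 3.77e-12) and PSPH -0.48 ± 0.0535 (adjusted p = 1.25e-07). It was also smaller for 13 of the ATF4 regulators, 11 ATF4 targets, 13 cytosolic synthetases and 11 transporters, with SLC7A11 at -1.11 ± 0.0757 and ATF4 at -0.31 ± 0.0409 (SE). PHGDH, PSAT1, PSPH, SLC7A11 and ATF4 were not called with all 12 libraries, where PHGDH stood at -0.19 ± 0.246 (adjusted p = 1). TAGLN differed by -0.69 ± 0.0999 (adjusted p = 9.43e-06) without the 2 libraries and by -0.63 ± 0.216 (adjusted p = 0.728) with them. For 15 of 38 DNA replication genes the value was higher with carboplatin, PCNA among them at 0.18 ± 0.0374.

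Levels over the 12 conditions place these changes. PHGDH lay at 319 ± 3.53 CPM in cis SSP -SG carbo, above the 186 ± 2.65 CPM of cis SSP carbo and the 166 ± 4.73 and 164 ± 10.4 CPM of cis -SG carbo and wt -SG carbo (SD, n = 3). It lay at 623 ± 155 CPM in cis SSP -SG, a group that holds library 32. ASNS stood at 225 ± 4.89 CPM in cis SSP -SG carbo, below the 290 ± 8.11 CPM of cis -SG carbo and above the 137 ± 6.81 CPM of wt -SG carbo. TAGLN lay in cis cells at 9.30 ± 1.18 to 11.6 ± 1.42 CPM over their 4 conditions, and it stood at 17.8 ± 0.669 CPM in cis SSP -SG carbo. These levels are given without a test.

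**Figure D5:**
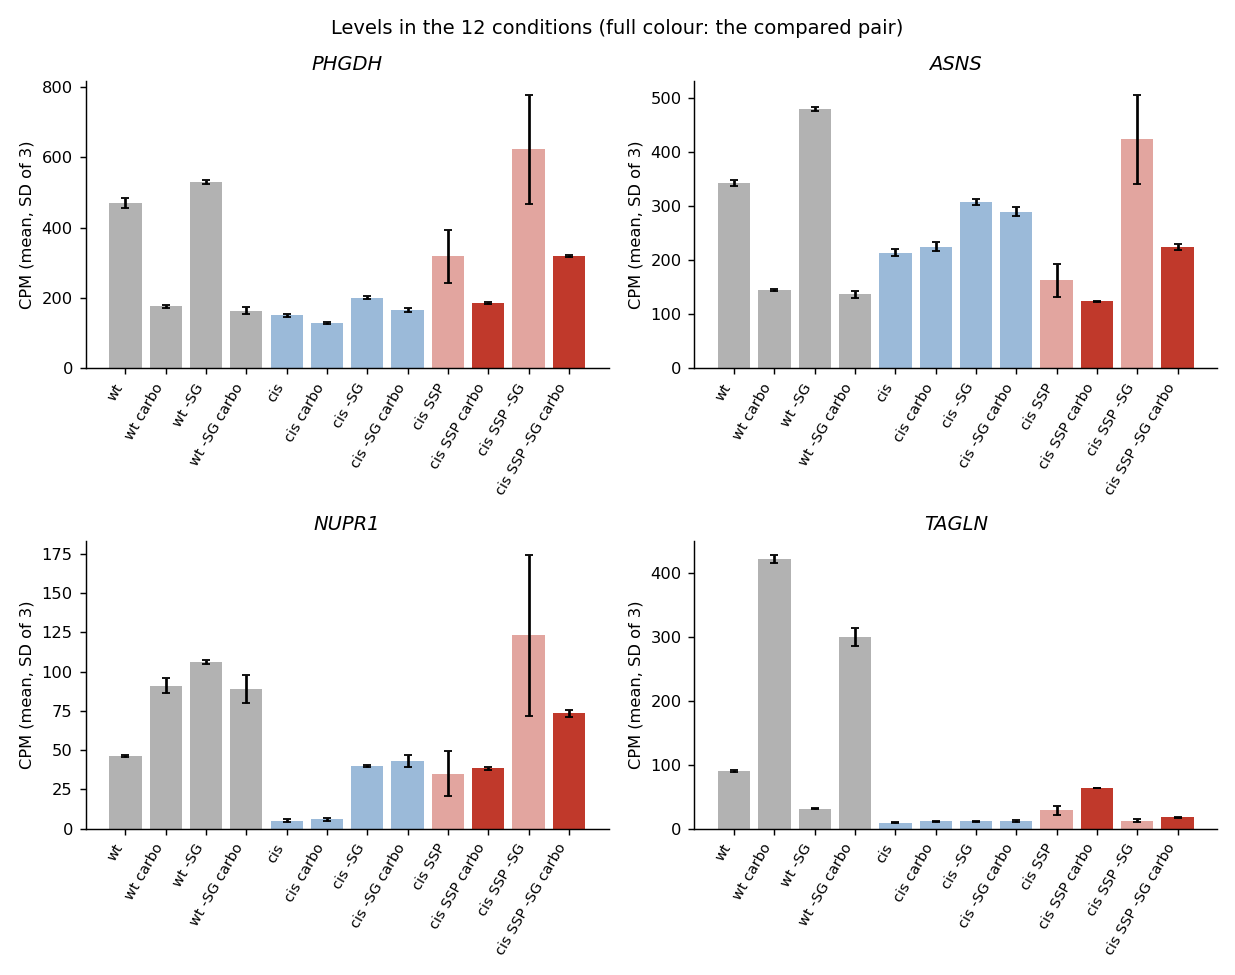
Mean CPM and SD of 3 libraries (bars from 0) of PHGDH, ASNS, NUPR1 and TAGLN in the 12 conditions, with wt in grey, cis in blue and cis SSP in red and the compared pair in full colour. The pair differs in each panel by more than its SDs, and the wide SDs of cis SSP and cis SSP -SG belong to groups that hold libraries 25 and 32.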

How the data were processed

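RNA-seq libraries were made by the authors with the SENSE Total RNA-Seq kit, aligned with STAR to GRCh37.p13 and counted over exons with HTSeq and GENCODE version 19. Their deposited values are raw counts per gene for 36 libraries. The strand setting and the treatment of reads with several alignments are not given in the sources used here. Symbols and GRCh37 positions were taken from GENCODE version 44 mapped to that build (55538 of 57820 identifiers matched), and promoters from RefSeq. The 3 rows naming no gene were left out of library sizes and tests, and reads on no feature made up 4.21% to 17.9% of a library.

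Groups followed the labels. Counts were normalised by TMM, filtered with filterByExpr and tested with edgeR 4.0.16 (quasi-likelihood, robust) in R 4.3.3, with Benjamini-Hochberg adjustment over all genes tested and a threshold of 0.05. SE is the absolute log2 fold change divided by the square root of F. Interactions were contrasts in fits over the 12 libraries concerned. DESeq2 1.42.0, other scalings and filters, a fit over 36 libraries, removal of the length trend and leaving out each library were the alternatives. The scripts were tested on simulated counts. Named genes were the 10 largest called changes in each direction among protein-coding genes with a mean of at least 50 counts, up to 4 called genes in each direction and 2 not called from each of 34 lists, and up to 5 interaction genes in each direction. VCL, HSPA5, SARS1, SESN2 under carboplatin and the further ATF4 regulators were singled out after their values were seen. A few list members are not reported here by name. The lists and tests were chosen with earlier results of these data known. Depth per library was 13074937 to 20441582 counts, so precision is lowest for genes with few counts. Figures were drawn with matplotlib 3.10.9.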

Additional observations from a re-analysis of the deposited data

Results flagged for a closer look

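The deprivation effect differed between cell lines or drug conditions, by the test of the difference itself (edgeR's quasi-likelihood interaction, adjusted p under the threshold), for 8313 genes between cis SSP and cis cells, 455 between cis SSP and wt cells and 4 between carboplatin and none. These tests share the carboplatin-treated cis SSP libraries.

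Against cis cells, the log2 fold change of deprivation was higher in cis SSP cells by 0.80 for PSAT1, 0.77 for PARP1, 0.47 for SLC1A5, 0.40 for PHGDH and 0.14 for PSPH, and the difference was -0.21 for SLC1A4. Under the naming rule, positive differences were those of PLA2G3 (3.59), P2RX5 (2.83), STAC2 (2.74), ACAT2 (2.68), an enzyme of sterol synthesis, and MEOX1 (2.58). P2RX5 held 0 to 4 counts in each of the 6 cis SSP libraries and shares its region with P2RX5-TAX1BP3. Negative differences were those of ATRNL1 (-4.80), KLF4 (-4.68), ALPK1 (-4.48), CDX2 (-4.41) and SLFN5 (-4.36). ATRNL1 had no count in any cis carbo library, so its fitted value depends on the prior count and is no bound. KLF4 had 5, 11 and 3 counts in cis carbo and 291, 242 and 274 in cis -SG carbo. CDX2 had 0, 3 and 2 counts in cis carbo, SLFN5 had 7 to 9 there, and ALPK1 had 5 to 14 there and 3 to 9 in the 6 cis SSP libraries, so these values are imprecise and their order is not read. ALPK1 overlaps TIFA on the opposite strand, with 1500% of its counts, and ACAT2 overlaps TCP1, with 1034%.

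Against wt cells, the differences of the enzymes were 0.90 (PHGDH), 0.84 (PSAT1) and 0.42 (PSPH), those of the transporters 0.64 (SLC1A4) and 0.38 (SLC1A5), and that of ATF4 was 0.27. It was 1.19 for SLC7A11, 1.17 for ALDH1L2, 1.05 for ADGRA2, 1.01 for DHRS2 and 1.0 for NCOA7. On the lower side stood ACTN3 (-1.70), TAGLN (-1.33), PLAU (-1.32), SYNPO (-1.18), an actin-associated protein, and PLAT (-1.14), the tissue plasminogen activator.

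With against without carboplatin, the difference was -1.74 for INHBE, -0.98 for STC2, -0.98 for NPR2 and -0.80 for SESN2. Reads on no feature, which no comparison uses, made up 17.9% of library 23 and 14.9% of library 24, both cis -SG carbo, and at most 9.31% of the others. Their part in the cis comparison was not tested beyond leaving both out.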

How the results depend on the processing

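No paired analysis was possible because the labels give library numbers and no replicate numbers shared between groups. The 1342 genes called in cis SSP cells became 699 with DESeq2, 96 with 1 fit over 36 libraries, 13 when a log2 change of 1 or more was also required, and 685 to 1394 without a single library. Of 146 called named genes, 40 were kept under every alternative, 106 were lost in at least 1 and 0 reversed. The 8313 genes that differed from cis cells became 5354 in the 36-library fit, 1943 with that log2 change required, and 7790 to 8906 without a single library, and total counts moved the median of all genes by -0.115. The 455 against wt cells became 724 with no filter, 99 in the 36-library fit, 21 with that log2 change, and 208 to 1429 without a single library. The 4 genes for carboplatin became 62 with DESeq2, 1 with no filter, 204 in the 36-library fit, 1 with that log2 change, 1 to 10 without a single library, and 2167 without libraries 25 and 32. The causes were not tested. In fits without a library, the group of 2 is assumed to vary like the others. Leaving out libraries 23 and 24, and libraries 25 and 32 for the effect without carboplatin alone, was chosen after seeing the data. Counts of 0 to 3 limit what can be detected for weakly expressed genes.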
